A study of Mus musculus with 24 samples.

Results

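Epithelium from the 2 ends of the wild-type mouse small intestine was compared: the duodenum, which receives food from the stomach, and the ileum, which ends at the colon. The samples were taken from their tissue and genotype labels, which gave 3 duodenal and 3 ileal arrays, 6 of the 24 arrays of the series. The duodenal and ileal samples came from male C57BL/6 mice with the wild-type genotype, aged 14 to 16 weeks and kept on chow. After an overnight fast the mice received 200 µL olive oil into the stomach, and the intestine was removed 2 h later, divided into segments and scraped, so each sample was a scraped epithelial layer with whatever lay against it. Every sample, in both segments, was therefore a fasted gut that had just been given fat, and no intestinal sample without oil was analysed here. Jejunum of the same genotype (3 arrays) gave a position relative to the ends. Duodenum and ileum of Casp1-null mice, which lack caspase-1 and had been backcrossed for 10 generations to the same strain (3 arrays each), gave an independent set of the same segments. The labels do not say which samples shared a mouse, so the p-values measure the spread between these samples, which may be technical.

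The small intestine is lined by one epithelium whose work changes along its length. Its absorptive enterocytes take up iron, calcium, folate, sugars and fat mainly near the stomach, and bile acids and vitamin B12 mainly in the ileum, from where bile acids return to the liver. Crypts at the base of the villi hold stem cells, dividing progenitors and Paneth cells, which secrete antimicrobial proteins, and hormone-producing cells differ in kind from one end to the other.

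Values are log2 expression values per gene, so a difference of 1 is 2-fold, and differences are duodenum minus ileum. Genes with an adjusted p under 0.05 were called (limma, Benjamini-Hochberg over all probe sets). A group mean under 4.87, the lowest median of an intestinal array, was read as not shown above background, and a fold against such a group is given as a lower bound. In these bulk samples, fewer cells of a type and less RNA per cell cannot be told apart.

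Both segments carried the markers of enterocytes: 12 such genes, among them villin and sucrase-isomaltase, averaged 12.53, 12.54 and 12.61 in duodenum, against 12.51, 12.21 and 12.43 in ileum. One array of each segment also carried markers of another tissue. Duodenal array 1 had a mean of 9.18 over 20 markers of pancreatic acinar cells, against 4.94 and 4.80 in the other duodenal arrays and 4.71 to 4.72 in ileum, and 17 of the 20 genes were there at least 2-fold above every other array. The chymotrypsinogen gene Ctrb1 read 12.36, 4.81 and 4.69 in duodenum, against 4.60, 4.50 and 4.58 in ileum. Ileal array 2 stood apart in the same way for the tissue under the epithelium: 17 smooth muscle markers averaged 9.03 in it and 4.87 to 5.11 in the other 5 arrays, and 14 of the 17 were at least 2-fold above every other array. Its 8 adipocyte markers averaged 8.18, against 4.44 to 4.87 elsewhere, its 12 fibroblast markers 7.50, against 4.63 to 4.87, and its 15 markers of enteric neurons and glia 5.71, against 4.36 to 4.56. Smooth muscle actin, Acta2, read 5.06, 4.70 and 4.70 in duodenum, against 5.29, 12.31 and 5.20 in ileum. In each case a single array was high and the other 5 were alike, and neither gene was called (adjusted p = 0.161 for Ctrb1 and 0.27 for Acta2). The genes whose difference moved most when either array was left out included Cpa1, Cpb1 and Cel, of the pancreas, for duodenal array 1, and Cnn1, Myl9 and Des, of muscle, with Car3 and Car1, for ileal array 2. Car1 is a colon marker, and 8 colon markers averaged 7.003 in ileal array 2, against 5.78 to 6.03 in the other 5 arrays, with 1 of the 8, Car1, at least 2-fold above every other array. Ileal array 2 also had the lowest mean over 20 T and NK cell markers (6.51, against 7.24 to 7.62 elsewhere), and ileal array 3 the highest over 15 B and plasma cell markers (6.19, against 5.19 to 5.62). Duodenal array 1 was also at least 2-fold above every other array for 3 of 14 gastric markers and 1 of 8 duodenal (Brunner's) gland markers. The gastric markers averaged 4.93, 4.51 and 4.41 in duodenum and 3.93 to 3.94 in ileum. Of these 14 genes, 10 were below the background reading in all 6 arrays. Results that rest on duodenal array 1 or ileal array 2 are therefore also given without them.

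**Figure D1:**
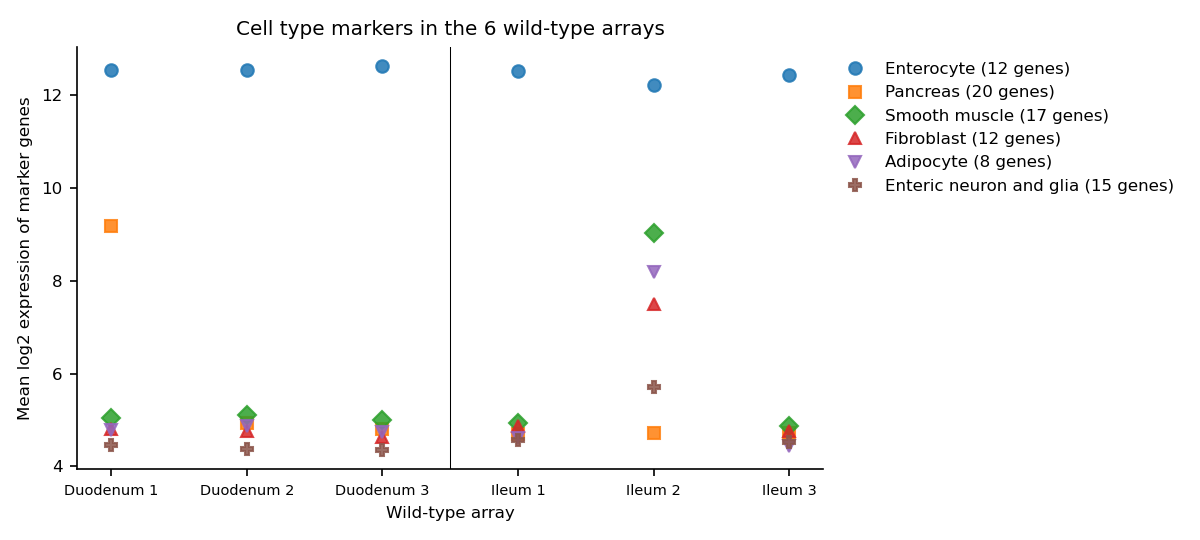
Mean log2 expression of the measured markers of 6 cell types (vertical axis) in each wild-type duodenal and ileal array (horizontal axis); each point is one list in one array. Pancreatic markers stand at 9.18 in duodenal array 1 only, and smooth muscle markers at 9.03 in ileal array 2 only, while enterocyte markers lie between 12.21 and 12.61 in all 6.

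The ends of the small intestine differed in many genes, in both directions. Of 18820 genes, 5260 were called (27.9%): 2488 higher in duodenum (13.2%) and 2772 lower in duodenum (14.7%). At least 2-fold differences numbered 1673, with 675 higher and 998 lower in duodenum, and at least 16-fold differences 42 higher and 31 lower. The median difference over all genes was 0.05. Without duodenal array 1 and ileal array 2 together, 3297 genes were called, of which 3205 were calls of the full comparison in the same direction.

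By measured difference, the first gene higher in duodenum was Tmprss15, the enteropeptidase that activates pancreatic trypsinogen. It read 11.53, 11.53 and 11.76 in duodenum, against 4.13, 3.47 and 4.39 in ileum, a difference of 7.61 ± 0.40 (SE) or at least 106-fold (adjusted p = 5.89e-09). The sulfotransferase gene Sult6b2 was at 7.19, or 146-fold, against ileal values of 4.76, 4.87 and 5.45, close to the background reading. Since the ileal values of Tmprss15 were below that reading, the order of these 2 genes is not settled. They were followed by Otop3, a member of the otopetrin proton channel family, at 6.50, and Slc16a9, of the monocarboxylate transporter family, at 6.45. Slc16a9 has 2 probe sets, and their mean differed by only 3.35, so its place here depends on the probe set chosen. Next were Cyp2c29 (6.19), Pdx1 (6.06), Reg1 (5.87), Cyp2b10 (5.84), Ugt2a3 (5.81), lactase Lct (5.75), alcohol dehydrogenase Adh4 (5.69) and the lipoprotein receptor gene Scarb1 (5.56). Reg1, which the acinar pancreas also makes, read 12.997, 12.97 and 13.10 in duodenum, against 7.06, 7.02 and 7.39 in ileum. All 3 duodenal arrays of Reg1 were alike, including the 2 with low pancreatic markers.

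The ileal end was led by carriers and transporters. Fabp6, the bile acid binding protein of the ileal enterocyte, read 3.62, 4.03 and 3.40 in duodenum, against 12.61, 12.35 and 12.53 in ileum, a difference of -8.81 ± 0.84 (SE) or at least 197-fold lower in duodenum (adjusted p = 2.67e-06). The sodium-phosphate transporter Slc34a2 differed by -8.04, the bile acid transporter Slc10a2 by -7.85, the monocarboxylate transporter Slc5a8 by -6.84 and the amino acid transporter Slc6a14 by -6.45. The rest were 1810065E05Rik (-6.36), Ddah1 (-5.85), which breaks down methylarginines, the glycosyltransferase gene Mgat4c (-5.70), Tmigd1 (-5.33), the protease gene Prss23 (-5.32), the transcription factor Osr2 (-5.30) and the nucleotide receptor P2ry4 (-5.21). Prss23 also has 2 probe sets, whose mean differed by -3.63. Where the lower group was below the background reading, the differences are measured against that signal and their order is uncertain. In none of these 24 genes did the duodenal and ileal arrays overlap, which the choice of the genes required.

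**Figure D2:**
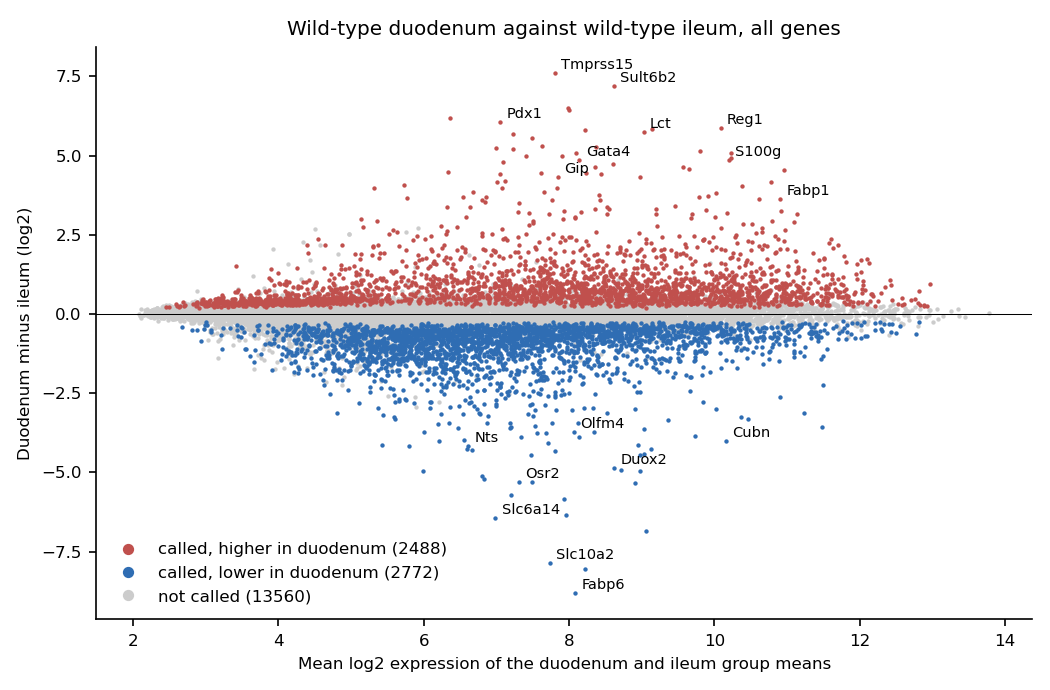
Each point is a gene; the vertical axis is duodenum minus ileum in wild type (log2) and the horizontal axis the mean of the duodenal and ileal group means (log2). Red points were called higher and blue points lower in duodenum, and named genes reach 7.61 for Tmprss15 at the top and -8.81 for Fabp6 at the bottom.

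Among 35 measured regulators of intestinal identity, 9 were higher and 11 lower in duodenum. Over all genes the shares were 13.2% higher and 14.7% lower, and each list count below is to be set beside them. Pdx1, the homeobox factor of pancreas and duodenum, read 10.13, 9.86 and 10.26 in duodenum, against 4.01, 3.83 and 4.21 in ileum (at least 37.0-fold, adjusted p = 2.86e-10). It was clearly present in all 3 duodenal arrays and below the background reading in every ileal one. Gata4, a zinc finger factor that in mice is required for jejunal identity, read 10.51, 10.68 and 10.54 in duodenum, against 6.15, 5.02 and 5.97 in ileum (29.1-fold, adjusted p = 7.61e-09). Onecut2 differed by 4.99, and Gata6, a relative of Gata4, by 1.16. The general enterocyte factors Hnf4a and Hnf4g were not called: Hnf4a averaged 12.11 ± 0.029 in duodenum and 12.16 ± 0.082 in ileum (SD, n = 3 each; limma adjusted p = 0.725), and Hnf4g differed by -0.06 (adjusted p = 0.732).

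The ileal side of the list held Osr2, which read 4.70, 4.64 and 4.63 in duodenum, against 9.85, 9.92 and 10.10 in ileum (adjusted p = 1.41e-11), and Tfcp2l1 (-2.47). It also held 3 genes of the Hoxb cluster, which marks position along the body axis. Hoxb9 read 4.38, 4.48 and 4.06 in duodenum, against 6.94, 7.06 and 7.01 in ileum (at least 4.38-fold lower in duodenum), and Hoxb6 and Hoxb5 differed by -2.42 and -2.29. The ileal values of Hoxb5 were 6.12, 6.86 and 6.22, with the array that carried muscle markers highest and the other 2 arrays still above all duodenal values (4.23, 4.23 and 3.86). Without duodenal array 1 and ileal array 2 the difference of Hoxb5 was -2.12 (adjusted p = 0.00103). Nr5a2, a nuclear receptor of crypt and bile acid genes, was also lower in duodenum (-1.69).

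To show regulatory sequence beside the large Gata4 difference, 3 promoters are printed with the letters AGATAA and TGATAA, a core of GATA factor sites, in capitals on either strand (TTATCT and TTATCA when read on the other strand). They belong to Lct and to Gip, the gene of an incretin hormone, which were both high in duodenum and jejunum, and to Slc10a2, which was high in ileum. The sequences are the 250 bases before the annotated start on the gene's own strand, from RefSeq windows of build GRCm38.p6.
Lct promoter, chr1:128328319-128328568, minus strand: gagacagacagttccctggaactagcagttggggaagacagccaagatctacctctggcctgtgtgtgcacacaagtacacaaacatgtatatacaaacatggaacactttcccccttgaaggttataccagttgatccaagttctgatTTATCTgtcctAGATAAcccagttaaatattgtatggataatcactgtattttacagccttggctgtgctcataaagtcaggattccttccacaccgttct
Gip promoter, chr11:96024295-96024544, plus strand: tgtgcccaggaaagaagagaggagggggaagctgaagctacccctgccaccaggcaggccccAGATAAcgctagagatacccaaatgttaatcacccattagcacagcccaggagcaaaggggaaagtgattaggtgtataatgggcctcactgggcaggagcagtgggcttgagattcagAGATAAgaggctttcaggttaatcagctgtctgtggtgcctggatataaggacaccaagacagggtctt
Slc10a2 promoter, chr8:5105288-5105537, minus strand: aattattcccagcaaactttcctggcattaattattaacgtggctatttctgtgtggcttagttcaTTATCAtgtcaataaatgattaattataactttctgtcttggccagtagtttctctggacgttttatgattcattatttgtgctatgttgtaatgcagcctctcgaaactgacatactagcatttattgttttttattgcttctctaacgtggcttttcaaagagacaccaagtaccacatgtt
The first base of the matches lay 101 and 90 bases before the start in Lct, 188 and 69 in Gip and 184 in Slc10a2. Of all 32851 promoter windows of this length, 16.6% held at least 1 match. Taking 1 window per gene, the share was 16.6% of 547 genes at least 2-fold higher in duodenum, 9.92% of 796 genes at least 2-fold lower in duodenum and 13.8% of 14749 measured genes. The letters and the 3 genes were chosen after these values were seen, and a match describes the sequence only.

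Wild-type jejunal values were set beside those of the ends. Each gene's position was set at 1 where the jejunal mean equalled the duodenal mean and at 0 where it equalled the ileal mean. Of the 675 genes at least 2-fold higher in duodenum, 215 had a position above 0.75, 315 lay from 0.25 to 0.75 and 145 were below 0.25. Of the 998 lower in duodenum, 317 were above 0.75, 587 between and 94 below 0.25. The outer groups include genes whose jejunal mean lay beyond both ends, 142 of the 675 and 90 of the 998. The jejunal values used the same duodenal and ileal arrays as the comparison, so these are descriptions.

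Some genes were high in the first segment alone: Tmprss15 read 3.96, 4.34 and 3.70 in jejunum, Pdx1 4.11, 4.15 and 4.02 and Slc16a9 4.52, 4.78 and 4.28, all near their ileal values. Others kept their duodenal level through the jejunum and were low in ileum, such as Lct (12.57, 12.53 and 12.50 in jejunum), Cyp2b10 (11.85, 11.55 and 11.62) and Gip (9.96, 9.92 and 10.07). Slc34a2 (11.88, 11.81 and 11.18 in jejunum) and Slc5a8 (12.40, 12.22 and 12.11) had already reached about their ileal level there. Fabp6 had not: its jejunal arrays read 4.66, 3.45 and 8.40, with 1 array well above the other 2. Jejunal array 3 was that array, and it was also the highest of the 3 for Slc6a14 (3.78, 3.997 and 6.61).

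**Figure D3:**
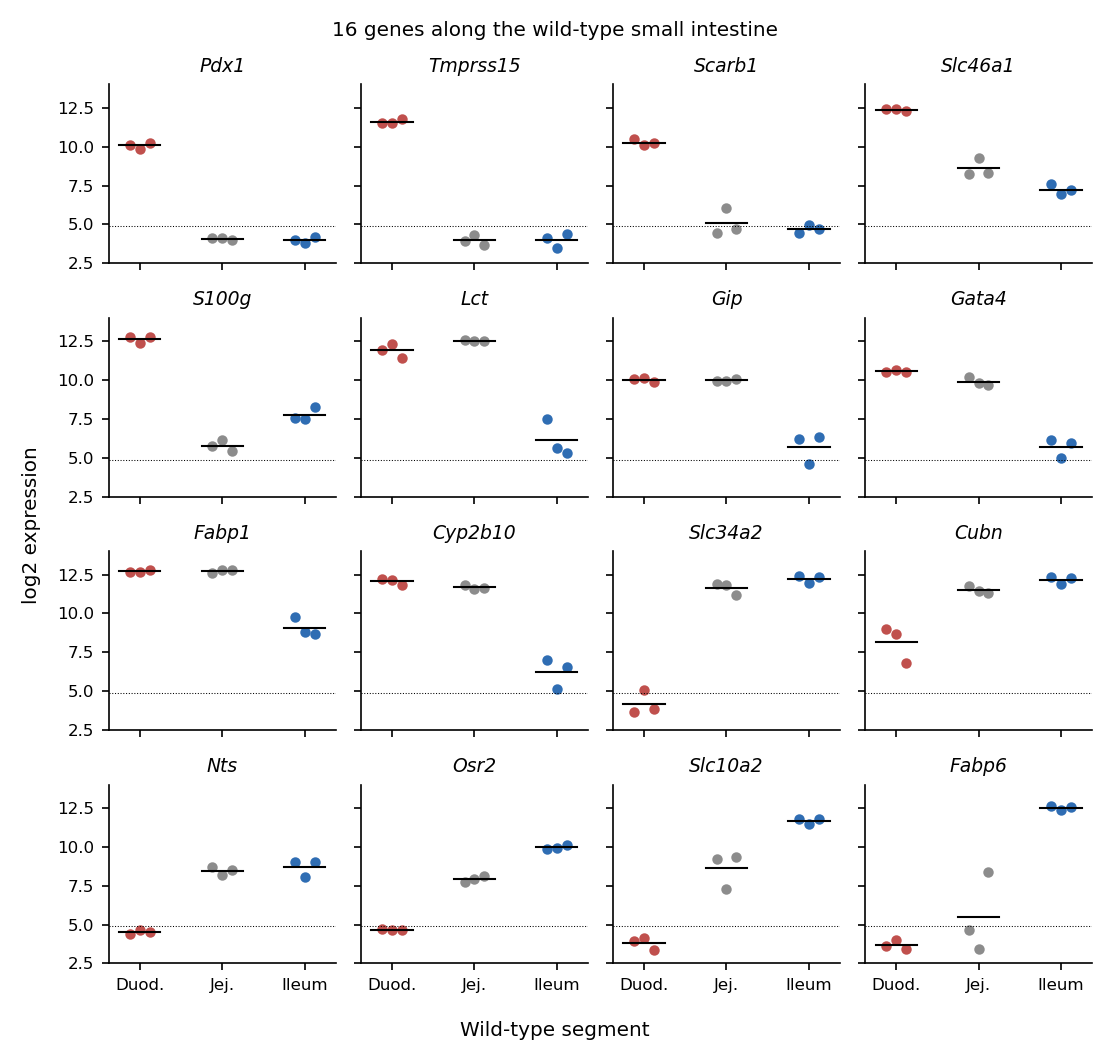
log2 expression of 16 genes in the 3 wild-type arrays of duodenum, jejunum and ileum; points are arrays, short lines group means and the dotted line the lowest median of an intestinal array (4.87). Pdx1 and Tmprss15 are high in duodenum alone, Lct, Gip and Gata4 in duodenum and jejunum, Slc34a2, Cubn and Nts in jejunum and ileum, and Fabp6 above all in ileum.

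Bile acid return to the enterocyte gave some of the largest differences of the comparison, although its genes did not all point to the ileum. Slc10a2, which carries bile acids from the lumen into the enterocyte, read 3.96, 4.13 and 3.33 in duodenum, against 11.76, 11.46 and 11.77 in ileum (at least 111-fold lower in duodenum, adjusted p = 1.72e-07). The basolateral exporter subunits differed far less and were well expressed at both ends: Slc51a read 9.94, 10.15 and 10.34 in duodenum, against 11.70, 11.46 and 11.73 in ileum (2.81-fold lower in duodenum), and Slc51b differed by -0.74 (adjusted p = 0.0038). Nr1h4, the bile acid receptor FXR, was 3.56-fold lower in duodenum. The FXR target Fgf15, a hormone that signals to the liver to slow bile acid synthesis, read 4.53, 4.51 and 4.17 in duodenum, against 7.13, 6.48 and 7.74 in ileum (at least 4.74-fold lower in duodenum). Another known FXR target ran the opposite way: Nr0b2, the repressor SHP, read 7.89, 7.36 and 8.03 in duodenum, against 3.86, 3.45 and 3.77 in ileum, at least 7.40-fold higher in duodenum (adjusted p = 1.38e-07). The organic anion exporters Abcc2 and Abcc3 were also higher in duodenum, by 2.58 and 1.03. Of 17 measured bile acid genes, 5 were higher and 7 lower in duodenum, with a median difference of 0.15.

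Iron genes were mostly duodenal. Of 14, 11 were higher and 2 lower in duodenum, with a median difference of 1.47. The brush border ferric reductase Cybrd1 read 10.74, 8.32 and 8.58 in duodenum, against 4.59, 5.54 and 4.92 in ileum (18.3-fold, adjusted p = 0.00159). The highest was duodenal array 1, which carried pancreatic and some gastric markers. The difference of Cybrd1 without duodenal array 1 and ileal array 2 was 3.69 (adjusted p = 0.0176). The iron importer Slc11a2 read 10.81, 9.66 and 9.99 in duodenum, against 8.85, 8.51 and 8.97 in ileum (2.60-fold), again with duodenal array 1 highest, and without duodenal array 1 and ileal array 2 it differed by 0.91 (adjusted p = 0.00746). Ferroportin, Slc40a1, which exports iron to the blood, read 12.05, 11.47 and 11.81 in duodenum, against 8.81, 8.42 and 8.50 in ileum (9.18-fold), and its jejunal arrays were lower than both ends at 4.54, 4.84 and 4.93. Transferrin receptor, Tfrc, and Steap3, which serve iron uptake from the blood, were the 2 lower in duodenum (-1.60 and -1.21).

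Calcium genes were divided, with the intracellular carrier and the apical channel higher in duodenum and the exit pump not called. S100g, calbindin D9k, which carries calcium across the cell, read 12.79, 12.39 and 12.74 in duodenum, against 7.59, 7.47 and 8.25 in ileum (29.2-fold, adjusted p = 6.4e-07), and its jejunal values (5.76, 6.14 and 5.45) lay below both ends. The apical channel Trpv6 read 7.81, 5.86 and 6.22 in duodenum, against 3.70, 3.66 and 3.57 in ileum (at least 3.38-fold), with duodenal array 1 highest, and its difference of 2.99 was 2.40 without that array (adjusted p = 0.0136) and 2.41 without duodenal array 1 and ileal array 2 (adjusted p = 0.0353). The basolateral calcium pump Atp2b1 differed by 0.38 (adjusted p = 0.0983). The vitamin D receptor Vdr differed by only 0.63 (adjusted p = 9.29e-05). Phosphate carriers were split, with Slc34a2 at -8.04 but Slc20a1 at 2.24 and Slc20a2 at 1.08. The tight junction gene Cldn2 was lower in duodenum (-1.59) and Cldn15 higher (0.94). In all, 7 of 16 calcium and phosphate genes were higher and 3 lower in duodenum.

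Folate and vitamin B12 uptake lay at opposite ends. The proton-coupled folate transporter Slc46a1 read 12.43, 12.39 and 12.32 in duodenum, against 7.57, 6.93 and 7.21 in ileum (35.4-fold, adjusted p = 3.61e-07), and the reduced folate carrier Slc19a1 was 4.13-fold higher in duodenum. Cubn, cubilin, which takes up vitamin B12 bound to intrinsic factor, read 8.98, 8.66 and 6.83 in duodenum, against 12.33, 11.91 and 12.26 in ileum (16.2-fold lower in duodenum, adjusted p = 5.72e-06). The duodenal arrays of Cubn spread over more than 2 log2 units, yet all lay below every ileal array, and without duodenal array 3 the difference was -3.35. Its partner Amn differed by -0.92 (adjusted p = 0.00446), and the riboflavin transporter Slc52a3 by -1.92. The vitamin C transporter Slc23a1 (2.66) and the manganese exporter Slc30a10 (2.43) were higher in duodenum.

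With oil in the gut, most genes of fat absorption were higher at the duodenal end, though the core secretory genes differed by less than 2-fold. Of 31 genes of fat uptake and chylomicron assembly, 24 were higher and 1 lower in duodenum, with a median difference of 0.72, and 20 and 1 without duodenal array 1 and ileal array 2. Fabp1, the liver-type fatty acid binding protein, read 12.68, 12.68 and 12.79 in duodenum, against 9.74, 8.83 and 8.70 in ileum (12.4-fold, adjusted p = 1.66e-08). The intestinal-type Fabp2 was at 13.04 ± 0.032 in duodenum and 12.74 ± 0.15 in ileum (SD, n = 3 each), a difference of 0.30 (limma adjusted p = 0.0228) that was not called without ileal array 2 (adjusted p = 0.113). The fatty acid receptor Cd36 read 9.47, 9.92 and 9.31 in duodenum, against 4.49, 8.82 and 4.55 in ileum (12.2-fold, adjusted p = 0.0124). Ileal array 2, which carried adipocyte and muscle markers, was far above the other ileal arrays for Cd36, and without it the difference was 5.05 (adjusted p = 0.000154). Leaving out ileal array 1 or 3, which keeps the high array, ended the call for Cd36. The lipase gene Aadac (5.26), the lipoprotein lipase cofactor Apoc2 (2.92), the fatty acyl-CoA synthetase Slc27a2 (2.85) and Dgat2, which makes triglyceride (1.82), showed the larger differences. Genes of chylomicron assembly itself had smaller differences. Mttp, which loads lipid onto the particle, differed by 0.91 and Apoa4 by 0.95. Apob, the structural apolipoprotein, differed by 0.30 (adjusted p = 0.0343, and 0.17 without ileal array 2), and Apoa1 by 0.15 without being called (adjusted p = 0.207).

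Sterol genes had 1 extreme member. Of 12 measured sterol transport genes, 2 were higher and 1 lower in duodenum, with a median difference of 0.08 (all genes: 13.2% higher and 14.7% lower). Scarb1 read 10.48, 10.09 and 10.24 in duodenum, against 4.47, 4.94 and 4.72 in ileum, at least 41.5-fold higher in duodenum, and its jejunal values were 4.45, 6.07 and 4.71. The cholesterol importer Npc1l1 read 11.57, 11.86 and 11.90 in duodenum, against 12.48, 11.89 and 12.45 in ileum, and its difference of -0.50 did not pass the test (adjusted p = 0.0534). Without ileal array 2, Npc1l1 passed as lower in duodenum, at -0.69 (adjusted p = 0.00982). Cholesterol synthesis ran toward the ileum, with 13 of 20 genes lower in duodenum, 1 higher and a median difference of -0.95. Squalene epoxidase, Sqle, read 9.41, 7.68 and 8.25 in duodenum, against 11.17, 10.60 and 10.92 in ileum (5.45-fold lower in duodenum, adjusted p = 0.000131), with duodenal array 1 nearest to the ileum. Its difference was -3.08 without duodenal array 1 and ileal array 2, in place of -2.45. The one higher in duodenum was Insig1, a brake on the pathway (1.25).

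Fatty acid synthesis was mixed. Of 16 genes, 4 were higher and 7 lower in duodenum. The desaturase Scd2 read 5.90, 5.29 and 5.71 in duodenum, against 9.85, 10.07 and 9.995 in ileum (20.2-fold lower in duodenum, adjusted p = 1.62e-09), and Fads2 (-2.45), Elovl5 (-2.08) and Acaca (-2.09), which desaturate, lengthen or start fatty acids, were also lower. Malic enzyme Me1 (3.33) and the regulator Srebf1 (1.91) were higher in duodenum. The related desaturase Scd1 read 6.19, 6.49 and 5.07 in duodenum, against 6.76, 11.46 and 7.08 in ileum, where 1 array, ileal array 2 with its adipocyte markers, stood far above the others, and it was not called (adjusted p = 0.305). Fatty acid oxidation leaned to the duodenum, with 16 of 29 genes higher and 2 lower. Pdk4, which diverts pyruvate from oxidation, read 10.83, 10.57 and 10.42 in duodenum, against 6.96, 9.30 and 7.21 in ileum (6.87-fold), and without ileal array 2 its difference was 3.52. Respiratory chain genes were higher in duodenum in 21 of 28 cases and lower in 0 (median 0.46), up to 0.99 for Uqcrc1 and 0.96 for Uqcrfs1, subunits of complex III.

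Sugar genes that were called were all higher in duodenum. Of 19 genes, 14 were higher and 0 lower in duodenum, with a median difference of 1.28, and 9 were higher without duodenal array 1 and ileal array 2. Lactase, Lct, read 11.95, 12.33 and 11.44 in duodenum, against 7.49, 5.64 and 5.33 in ileum (53.9-fold, adjusted p = 9.47e-08). The basolateral glucose and fructose exit carrier Slc2a2 read 11.99, 11.96 and 11.86 in duodenum, against 7.80, 5.33 and 8.99 in ileum (23.6-fold), and ileal array 2 was the lowest. Without that array the difference of Slc2a2 was 3.54 in place of 4.56 (adjusted p = 6.78e-06). Trehalase, Treh, and Slc2a7 differed by 2.42 and 3.15. Sucrase-isomaltase, Sis, was at 12.70 ± 0.033 in duodenum and 12.57 ± 0.22 in ileum (SD, n = 3 each) and was not called (limma adjusted p = 0.455).

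Genes of peptide digestion and other brush border hydrolases were divided between the ends. Of 15 genes, 6 were higher and 4 lower in duodenum. The alkaline phosphatase gene Akp3 read 13.30, 13.18 and 13.26 in duodenum, against 8.50, 8.97 and 8.58 in ileum (23.6-fold), and the endopeptidase Mme was higher by 1.72. The brush border peptidases Xpnpep2 (-3.25), Mep1a (-2.63) and Naaladl1 (-2.24) were lower in duodenum. The peptide transporter Slc15a1 differed by 0.17 (adjusted p = 0.38). Amino acid transporters were split evenly, with 5 of 16 higher and 5 lower. The glutamate transporter Slc1a1 read 6.08, 6.95 and 7.20 in duodenum, against 11.23, 10.97 and 11.41 in ileum (22.0-fold lower in duodenum, adjusted p = 3.72e-09), and Slc7a8, a basolateral exchanger, was 4.33-fold higher in duodenum.

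Ion and water transport changed its members along the gut. Of 21 genes, 10 were higher and 6 lower in duodenum. Carbonic anhydrase Car2, which serves bicarbonate secretion, read 10.85, 10.02 and 10.52 in duodenum, against 6.02, 6.16 and 5.82 in ileum (22.1-fold), while Car4 was lower in duodenum (-1.42). The water and glycerol channel Aqp3 differed by 3.85, and Aqp1 by -2.04. Guca2a, the gene of guanylin, a peptide that stimulates chloride secretion, read 7.83, 8.09 and 7.49 in duodenum, against 11.75, 11.57 and 11.70 in ileum (14.6-fold lower in duodenum, adjusted p = 8.55e-08). The chloride entry transporter Slc12a2 (-3.03) and the channel subunit Kcne3 (-2.85) were lower too, and the chloride channel Cftr differed by 0.09 (adjusted p = 0.804).

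Genes for foreign compounds were broadly higher in duodenum. Of 27 cytochrome P450 genes, 20 were higher and 1 lower in duodenum (median 1.25), and 14 and 1 without duodenal array 1 and ileal array 2. Cyp2b10 read 12.23, 12.16 and 11.81 in duodenum, against 7.01, 5.12 and 6.54 in ileum (57.3-fold, adjusted p = 1.32e-07), and Cyp3a11, which oxidises many drugs, was 9.53-fold higher. Cyp2u1 was the one lower in duodenum (-2.40). Of 35 conjugation and export genes, 23 were higher and 3 lower (median 1.10, all genes: 13.2% higher and 14.7% lower). The glucuronosyltransferase Ugt2a3 read 11.26, 11.25 and 10.88 in duodenum, against 5.40, 4.68 and 5.88 in ileum (56.2-fold), the alcohol dehydrogenase Adh6a differed by 5.09, and the glutathione transferases Gstm6, Gsta4 and Gstm1 by 4.65, 3.74 and 3.71. The drug exporter Abcg2 was lower in duodenum (-1.12). These families hold close copies whose probes may share signal, so the value of a single member is uncertain. Of 24 retinoid genes, 8 were higher and 3 lower in duodenum, so the share lower was near that of all genes. Among them were Rbp2, the retinol carrier of the enterocyte (2.10), and Bco1, which cleaves beta-carotene (-1.76).

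Hormone genes marked each end. Of 25 enteroendocrine genes, 10 were higher and 6 lower in duodenum, and 6 and 5 without duodenal array 1 and ileal array 2. Gip read 10.04, 10.11 and 9.86 in duodenum, against 6.18, 4.58 and 6.32 in ileum (19.9-fold, adjusted p = 2.92e-07). Cholecystokinin, Cck, which releases bile and pancreatic enzymes, differed by 2.11, ghrelin, Ghrl, by 1.81, and Tph1, which makes serotonin, by 1.95. Neurotensin, Nts, read 4.38, 4.66 and 4.54 in duodenum, against 9.02, 8.04 and 9.04 in ileum (at least 14.2-fold lower in duodenum, adjusted p = 1.35e-08). Its neighbours in the distal set were Tac1 (-3.48), peptide YY, Pyy (-2.56), and Gcg, the source of glucagon-like peptides (-2.48). Secretin, Sct, was not called, at 7.20 ± 0.14 in duodenum and 7.07 ± 0.38 in ileum (SD, n = 3 each; limma adjusted p = 0.626), and Insl5, a hormone of the colon, was below the background reading at both ends.

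Measured antimicrobial genes were mostly ileal. Only 21 of the 34 listed genes were measured, and the others had no test. Of the 21, 3 were higher and 11 lower in duodenum (median -1.82, all genes: 13.2% higher and 14.7% lower). The Paneth cell protease Mmp7, which activates defensins, read 5.42, 5.78 and 5.83 in duodenum, against 9.05, 10.61 and 9.59 in ileum (16.8-fold lower in duodenum), and the lectin gene Itln1 and the phospholipase Pla2g2a differed by -3.76 and -3.43, with Itln1 at -2.42 over the mean of its probe sets. For all 3, ileal array 2 was the highest, and without duodenal array 1 and ileal array 2 Mmp7 differed by -3.51 (adjusted p = 0.000778). Another 3 genes of the list, which make nitric oxide or hydrogen peroxide, varied strongly among the duodenal arrays. Nitric oxide synthase Nos2 read 4.52, 6.81 and 7.41 in duodenum, against 11.36, 10.63 and 11.54 in ileum (adjusted p = 1.03e-05). Duox2, an oxidase of the enterocyte surface, read 4.53, 5.90 and 8.15 in duodenum, against 11.53, 10.72 and 10.90 in ileum, and its maturation factor Duoxa2 5.24, 6.16 and 8.08 in duodenum, against 11.95, 10.995 and 11.44 in ileum. Duodenal array 3 was the highest and array 1 the lowest duodenal array for all 3, and none reached the ileum. The differences without duodenal array 1 were -4.07 for Nos2, -4.03 for Duox2 and -4.34 for Duoxa2, in place of -4.93, -4.86 and -4.97. The lectins Reg3b and Reg3g were high at both ends and were not called (adjusted p = 0.21 and 0.13). Goblet cell genes were lower in duodenum in 9 of 17 cases and higher in 0, with Ccl6 (-1.66), Spink4 (-1.27) and the secretory fate factor Atoh1 (-1.11) in front. Tff3, a goblet cell peptide, was not called (-0.19, adjusted p = 0.261).

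Genes of dividing crypt cells were the most one-sided of the 27 lists by the share of members called. Of 23 cell cycle genes, 21 were lower and 0 higher in duodenum, with a median difference of -1.90. Cyclin A2, Ccna2, read 5.70, 6.25 and 6.14 in duodenum, against 8.71, 9.79 and 8.63 in ileum (8.09-fold lower in duodenum), and the proliferation marker Mki67 read 5.80, 6.46 and 6.22 in duodenum, against 8.29, 9.53 and 8.42 in ileum (6.03-fold lower in duodenum). The replication genes Pcna (-0.06, adjusted p = 0.739) and Rrm2 (0.34, adjusted p = 0.388) were not called. Of 16 stem cell genes, 11 were lower and 1 higher in duodenum. Olfm4 read 5.91, 6.34 and 6.36 in duodenum, against 8.97, 11.003 and 9.83 in ileum (13.3-fold lower in duodenum), Lgr5, the receptor that marks crypt base stem cells, read 4.39, 4.51 and 4.27 in duodenum, against 5.91, 7.86 and 6.54 in ileum (at least 3.72-fold lower in duodenum), and Rnf43, which restrains Wnt signalling, was higher by 1.34. Ileal array 2 was the highest array for Ccna2, Mki67, Olfm4 and Lgr5, beside its smooth muscle mean of 9.03 and enterocyte mean of 12.21, the lowest of the 6. Without duodenal array 1 and ileal array 2, 20 of the 23 cell cycle genes and 6 of the 16 stem cell genes were lower in duodenum, and the medians were -1.45 and -0.77. Olfm4 then differed by -3.05 in place of -3.73. How much crypt each scrape took up was not measured, and its part in these differences was not tested.

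Other lists were mixed. Of 14 tuft cell genes, 1 was higher and 1 lower in duodenum, and of 26 genes of antigen presentation and interferon response 2 and 3 (all genes: 13.2% and 14.7%). Endoplasmic reticulum stress genes were higher in 3 and lower in 4 of 22 cases. Of the clock genes, 7 of 15 were higher and 4 lower in duodenum. The activator Arntl read 5.44, 5.66 and 6.94 in duodenum, against 8.66, 8.21 and 8.59 in ileum (5.57-fold lower in duodenum, adjusted p = 5.1e-05), and the repressor Per2 read 8.87, 9.16 and 8.65 in duodenum, against 7.38, 6.95 and 7.35 in ileum (3.18-fold, adjusted p = 1.34e-05). The groups did not overlap for either, and duodenal array 3 was the nearest to the ileum for Arntl. The clock time of each sampling was not in the labels. Without duodenal array 1 and ileal array 2, 3 clock genes were higher and 4 lower in duodenum, and 3 were higher without duodenal array 1 alone and 4 without duodenal array 2 or ileal array 1.

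**Figure D4:**
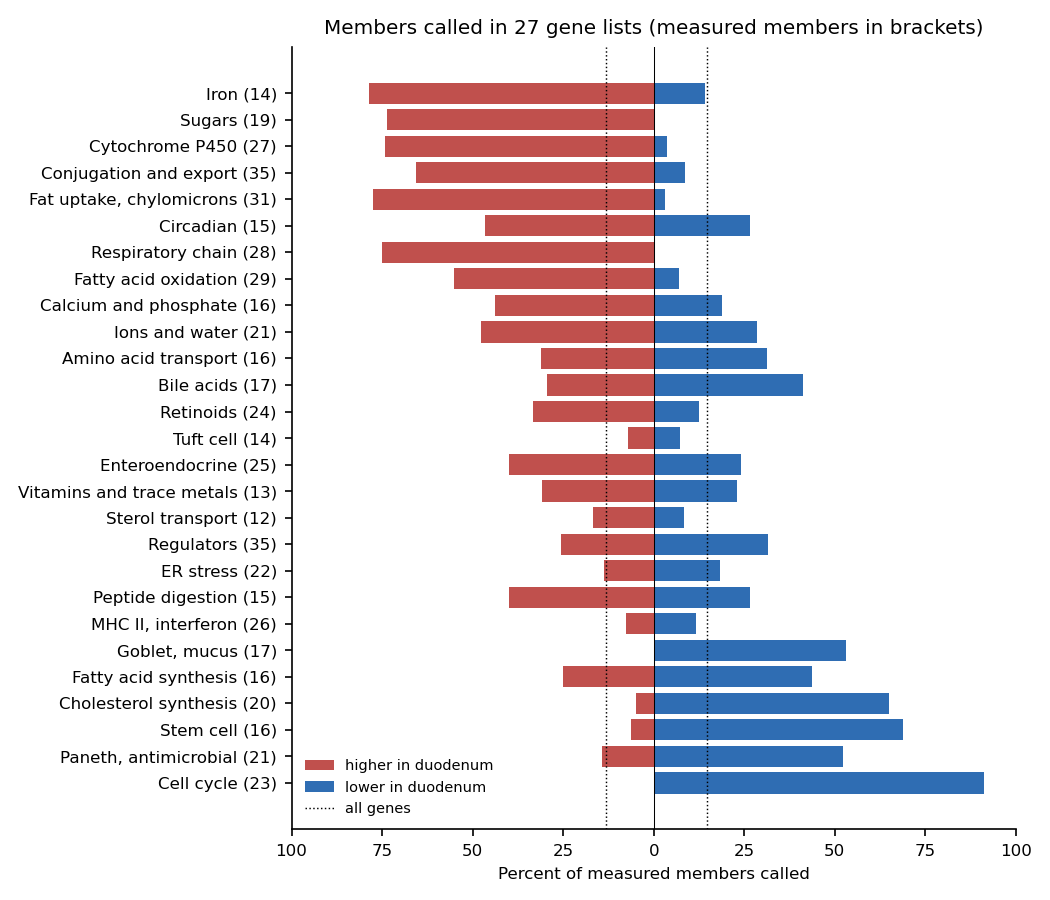
Percent of the measured members of 27 gene lists that were called higher (red, to the left) or lower (blue, to the right) in wild-type duodenum, ordered by median difference with the highest at the top. Dotted lines mark all genes (13.2% higher and 14.7% lower); 11 of 14 iron genes lie to the left and 21 of 23 cell cycle genes to the right.

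The same segments of Casp1-null mice, on arrays that took no part in the wild-type contrast, gave 3952 called genes (21.0%), with 1921 higher and 2031 lower in duodenum. Of the 1673 wild-type genes that differed at least 2-fold, 1670 had the same sign in Casp1-null mice and 1439 were called in that direction there. Genes called alike in both numbered 3193, which is 80.8% of the Casp1-null calls and 60.7% of the wild-type calls. The fit shared its estimate of spread between genotypes. Fabp6 differed by -8.17 in Casp1-null and -8.81 in wild-type mice, Slc10a2 by -7.51 and -7.85, and Gata4 by 4.36 and 4.87. The sizes did not always match. Reg1 differed by 2.88 in Casp1-null and 5.87 in wild-type mice, Sult6b2 by 4.26 and 7.19, and Tmprss15 by 5.19 and 7.61. Fabp1 differed by 1.92 and 3.63, while Slc5a8 was larger in Casp1-null mice, at -7.42 and -6.84. None of these genes was called for a difference between genotypes (limma interaction adjusted p = 0.375 for Reg1 and 0.062 for Fabp1). Casp1-null ileal array 3 carried smooth muscle markers at 8.28, against 4.78 and 5.04 in the other Casp1-null ileal arrays, and Casp1-null duodenal array 3 carried gastric markers at 6.11, against 4.44 and 4.67. Casp1 itself, the deleted gene, read 6.42, 6.42 and 6.53 in Casp1-null and 8.36, 8.26 and 8.98 in wild-type duodenum, and 7.80, 7.26 and 7.42 in Casp1-null and 9.95, 9.28 and 9.90 in wild-type ileum. Every Casp1-null array lay below every wild-type array of its segment. In wild type, Casp1 was lower in duodenum than in ileum (-1.18, adjusted p = 0.00137).

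The regional difference itself differed between genotypes in 13 genes (0.0691%), and 1154 genes had an unadjusted p under 0.05. Without duodenal array 1, ileal array 2 and Casp1-null ileal array 3, it differed in 8 genes. In 6 of the 13 the Casp1-null ileal arrays all lay below the wild-type ones. The gene ccdc198 read 3.29, 3.87 and 3.60 in Casp1-null and 8.96, 8.12 and 8.33 in wild-type ileum, and 3.53, 3.45 and 3.01 in Casp1-null and 3.46, 3.59 and 3.48 in wild-type duodenum, where all arrays were below the background reading. Pik3ap1, an adaptor for phosphoinositide 3-kinase, read 6.70, 6.60 and 6.54 in Casp1-null and 9.72, 9.32 and 9.67 in wild-type ileum, while all 6 duodenal arrays of both genotypes lay from 6.40 to 6.60. Slc25a48, of the mitochondrial carrier family, read 6.50, 7.46 and 6.33 in Casp1-null and 9.64, 8.91 and 9.53 in wild-type ileum, and Cldn8, a claudin of tight junctions, read 5.41, 4.68 and 4.91 and 7.16, 7.48 and 7.14 in that order. Both were below the background reading in every duodenal array. On the duodenal side, Cyp2c29 read 4.08, 3.73 and 4.16 in Casp1-null and 10.83, 9.62 and 7.93 in wild-type duodenum, and Cbr3, a carbonyl reductase, 4.0005, 4.01 and 4.39 and 7.30, 6.62 and 6.54 in the same order. Both were below the background reading in wild-type and Casp1-null ileum.

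**Figure D5:**
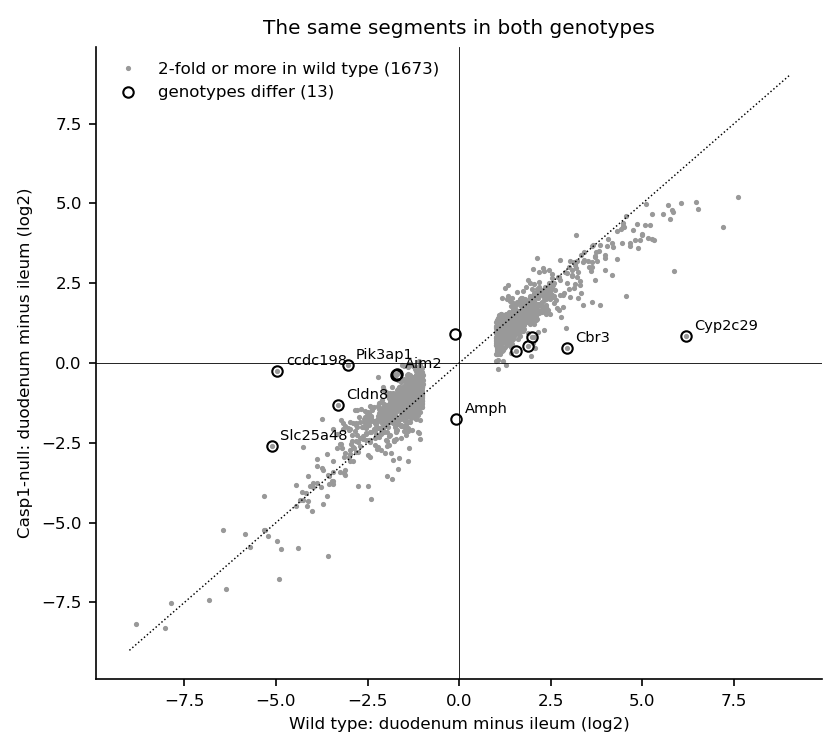
Duodenum minus ileum (log2) in Casp1-null mice (vertical axis) against the same difference in wild-type mice (horizontal axis) for the 1673 genes called at 2-fold or more in wild type; circles mark the 13 genes whose difference differed between genotypes, 2 of which (Fam241a and Amph) are not among the 1673, and the dotted line marks equal values. In 1670 of the 1673 genes the sign is the same in both, while ccdc198 is at -0.26 and Pik3ap1 at -0.07 in Casp1-null mice.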

How the data were processed

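RNA of scraped intestinal epithelium was hybridised to Affymetrix whole-transcript arrays. The authors deposited RMA values on a log2 scale for each probe set, per the submitters' processing notes, which name no RMA version. RMA corrects background, scales all arrays to the same distribution and summarises probes. Levels of different genes cannot be set against each other on this scale, and the files used here hold no detection calls. The number of arrays limits the precision.

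Of 35556 probe sets, 21218 carried 1 gene symbol in the platform annotation, 1881 several and 12457 none, and 21185 matched the RefSeq gene table. For the 1386 genes with several probe sets, the one with the highest mean over the 24 arrays was used, which left 18820 genes. Samples were grouped by their tissue and genotype labels. The 18 intestinal arrays were fitted together as 6 groups with limma 3.58.1 in R 4.3.3 (12 residual degrees of freedom), with two-sided moderated tests and Benjamini-Hochberg adjustment over all probe sets. The script was tested on simulated data. No array pair held identical values, and correlations were 0.9865 to 0.9913 among duodenal, 0.9792 to 0.9926 among ileal and 0.9442 to 0.9702 between duodenal and ileal arrays.

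Named genes were the 12 with the largest called difference each way without overlap, up to 6 called members per gene list and direction with up to 3 that did not pass, a set of regional landmark genes, the 10 genes with the smallest p between genotypes, and 10 that moved most without duodenal array 1 or ileal array 2; Casp1 was added as the deleted gene, and Fam241a, Amph and Aim2 after their values were seen, as the other called genotype differences. The genes, lists and tests were chosen with earlier results of these data known. Alternatives covered the arrays in the fit, moderation, a filter, scaling, weights, blocks, a minimum fold, the choice of probe set and each array left out. Promoter windows came from RefSeq, build GRCm38.p6. Figures were drawn with matplotlib 3.10.9.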

Additional observations from a re-analysis of the deposited data

Results flagged for a closer look

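In 13 genes the duodenum minus ileum difference itself differed between Casp1-null and wild-type mice (interaction in the limma fit, adjusted over all probe sets). Values are the Casp1-null difference minus the wild-type one, on the log2 scale. In ccdc198, Slc25a48, Cldn8, Hao2, Cyp2c29, Cbr3, Pzp and Amph at least 1 segment was below the background reading in both genotypes or in one, so these values are measured partly against background signal. The ileal gene ccdc198 gave 4.70 ± 0.38 (SE, adjusted p = 6.83e-05) and Pik3ap1 2.97 ± 0.24 (adjusted p = 6.83e-05). Slc25a48 gave 2.51 and Cldn8 2.01, with a smaller ileal excess in Casp1-null than in wild-type mice. Hao2, a peroxisomal hydroxyacid oxidase, gave 1.37, but only wild-type ileum, at 5.16 ± 0.24 (SD, n = 3), was above the background reading. Fam241a gave 1.01, with 5.81, 5.96 and 5.96 in Casp1-null ileum and 6.91, 6.84 and 7.22 in wild-type ileum.

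Cyp2c29 gave -5.35 ± 0.66 (adjusted p = 0.00392). Its wild-type duodenal arrays spread over almost 3 log2 units, all above the Casp1-null ones. Cbr3 gave -2.47, Pzp, a protease inhibitor of the alpha-2-macroglobulin family, -1.35, Fbxw9, an F-box protein, -1.17, and Ciapin1, an iron-sulphur cluster assembly factor, -1.15. For these 4 the duodenal excess of wild type was smaller in Casp1-null mice.

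Amph and Aim2 stood apart by being higher in Casp1-null than in wild-type mice in both segments. Amph, which bends membranes in endocytosis, read 4.85, 4.71 and 5.31 in Casp1-null and 4.25, 4.16 and 3.90 in wild-type duodenum, and 6.84, 6.44 and 6.84 in Casp1-null and 3.96, 4.57 and 4.01 in wild-type ileum, an interaction of -1.67 (adjusted p = 0.0328). Aim2, a DNA sensor that acts through caspase-1, read 8.22, 7.91 and 8.19 in Casp1-null and 5.72, 5.60 and 6.21 in wild-type duodenum, and 8.52, 8.50 and 8.32 in Casp1-null and 7.61, 7.32 and 7.72 in wild-type ileum, an interaction of 1.36 (adjusted p = 0.0499). Fam241a, Slc25a48, Amph, Hao2 and Aim2 were not called without duodenal array 1, ileal array 2 and Casp1-null ileal array 3. Without Casp1-null ileal array 3 alone, Fam241a, Slc25a48, Amph and Aim2 were not called either (interaction adjusted p = 0.0524, 0.0573, 0.0898 and 0.108). The cause of these differences was not tested.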

How the results depend on the processing

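The count of 5260 genes called between wild-type duodenum and ileum stayed within 1.5 times under 15 of 17 alternatives. Requiring at least 1.5-fold (treat) gave 1104 genes, 515 higher and 589 lower in duodenum, since it tests against a larger difference. Leaving out duodenal array 1 and ileal array 2 together gave 3297, with 1541 higher and 1756 lower, from 4 arrays in place of 6. Leaving out single arrays gave 4134 to 5021 called, 1823 to 2305 higher and 2157 to 2716 lower. The 6 wild-type arrays alone gave 3897, quantile normalisation 5173, median centring 5185 and array weights 5827, with 45.0%, 49.5%, 51.2% and 47.3% of calls higher in duodenum against 47.3% in the fit reported. No named gene changed direction when called. Of 239 called, 158 kept their call under every alternative that tested them. The filter on expression removed some named genes, which had no test there. Of the 81 that lost it under some, 80 did so under treat. Differences also moved by more than 1.5-fold for Slc1a1 (-3.79 over the mean of its probe sets), Cyp2b10 (5.21 without both arrays), Cyp2c29 (5.50 without duodenal array 1, 6.95 without duodenal array 3), Slc5a8 (-6.22 and -7.54) and Lct (6.42 without ileal array 1), all of them called. List counts of 5 or fewer moved by 1 or more under several settings, and the conjugation list had 1 gene lower in place of 3 without both arrays. Larger counts fell too without both arrays. Genes higher in duodenum went from 14 to 9 for sugars, 10 to 6 for hormones and 7 to 3 for the clock. Stem cell genes lower in duodenum went from 11 to 6.

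Deviations of same-numbered duodenal and ileal arrays correlated at -0.0243, 0.0645 and 0.1139, against -0.1166 to 0.0563 for different numbers. With 3 arrays per segment these values cannot decide pairing. The replicate numbers were not read as pairing, since the labels do not give it. With the replicate number as a fixed block 5260 genes were called, 2434 higher and 2826 lower in duodenum, and as a random block (correlation 0.0458) 5509. The genotype differences numbered 13, also with the block. They numbered 11 without Casp1-null ileal array 3 and 8 without duodenal array 1, ileal array 2 and that array, alternatives added after seeing the data. The 11 were not all among the 13, since Slc25a48, Fam241a, Amph and Aim2 lost their call without Casp1-null ileal array 3. The Casp1-null contrast gave 3299 and 3658 genes under these 2 alternatives, in place of 3952.

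With 3 arrays per segment, differences of about 0.3 such as those of Fabp2 and Apob changed sides of the threshold between settings. Folds against a group mean under 4.87 are given only as bounds. Folds against a mean just above it, such as those of Sult6b2 and Cybrd1, are given plainly but are measured close to background. Scraping depth, clock time and the animal behind each sample were not in the labels.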
